A study of Mus musculus with 6 samples.

Results

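The sites described here are the p65 peaks that were called in epidermal cells of aged mice given a control IgG (aged/IgG control) and had no counterpart in adult mice. They were selected on the peak calls themselves: a peak of the aged/IgG control list was a member when no adult peak overlapped it by even 1 bp. Of the 4169 aged/IgG control peaks, 279 met this rule (6.69%, 95% Wilson interval 5.97 to 7.49%). A total of 175 of them (4.2% of the list) also had no overlap in aged mice given antibodies against IL-17A and IL-17F (aged/anti-IL-17A/F) and are called IgG-control-only sites below, whereas 104 (2.49% of the list) overlapped an aged/anti-IL-17A/F peak and are called sites of both aged lists. Since overlap chose the members, neither their number nor their class is a finding, and both are given as description.

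p65, encoded by Rela, is the transactivating subunit of canonical NF-κB. It is held in the cytoplasm by inhibitors of the IκB family and enters the nucleus after signals from receptors such as those for TNF, IL-1 and IL-17, where it binds κB sites, short sequences that open with GGG and close with CC. In epidermal keratinocytes, NF-κB controls genes of inflammation, survival and differentiation, and IL-17A and IL-17F from lymphocytes of the skin act on these cells through IL-17RA and IL-17RC. The comparison asks where p65 was found in aged but not in adult epidermis, and whether those places were also occupied when IL-17A and IL-17F were blocked.

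Each of the 3 lists came from the pooled ChIP–seq reads of 4 C57BL/6J mice. Aged mice received the control IgG or both blocking antibodies by intraperitoneal injection for 12 weeks, starting at 73 weeks of age. By the study's methods its adult mice were 17 to 25 weeks old and its aged mice 80 to 90, a range stated for the study and not for these pools alone. Adult mice received no injection, so that age and IgG injection cannot be told apart in any comparison of adult with aged/IgG control. The cells were a trypsin-separated epidermal suspension and were not sorted, so cells other than keratinocytes could contribute. With 1 pool per condition there are no replicates: no difference has a replicate check, and every interval given here covers counting error only. The adult list held 8525 peaks and that of aged/anti-IL-17A/F 6014. In the adult list, the peaks carry internal names with the same prefix as those of aged/anti-IL-17A/F. The labels were followed, and an exchange of those 2 lists would leave the IgG-control-only class as it is but would give 557 peaks absent from adult, 382 of them in both aged lists.

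The DNA under the strongest sites that hold an NF-κB consensus shows what p65 could contact there. The consensus is the standard 10-base κB motif, looked for on either strand and no more than 100 bp from the summit. All sequences were read from GRCm38 (mm10), 5′ to 3′ on the strand of the match, with the match in capitals and 20 bases to either side. The 6 strongest IgG-control-only sites with a match outside exons, apart from the site at Prr16, whose sequence is not shown, were the following.
Nr2c1 (chr10:94093586-94093635, + strand): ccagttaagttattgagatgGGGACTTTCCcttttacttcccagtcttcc
1700021L23Rik (chr4:124317539-124317588, - strand): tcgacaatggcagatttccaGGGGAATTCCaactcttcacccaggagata
Drp2 (chrX:134420274-134420323, + strand): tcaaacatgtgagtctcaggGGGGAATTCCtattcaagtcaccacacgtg
Cdcp1 (chr9:123201483-123201532, + strand): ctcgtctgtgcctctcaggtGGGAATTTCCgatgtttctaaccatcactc
7530428D23Rik (chr3:21729521-21729570, - strand): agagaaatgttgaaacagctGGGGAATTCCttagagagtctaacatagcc
BC051537 (chr17:34103010-34103059, + strand): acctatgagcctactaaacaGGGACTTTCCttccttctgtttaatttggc
Each is named for the gene of the nearest start site. The first 4 lay in introns and the last 2 between genes. The 6 strongest such sites of both aged lists were the following.
B230209E15Rik (chr7:61481317-61481366, + strand): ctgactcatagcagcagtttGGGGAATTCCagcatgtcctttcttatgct
Evc2 (chr5:37522555-37522604, - strand): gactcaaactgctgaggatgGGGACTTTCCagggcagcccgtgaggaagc
Ccdc114 (chr7:45939850-45939899, + strand): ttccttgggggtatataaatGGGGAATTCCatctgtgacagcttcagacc
Acap3 (chr4:155894338-155894387, - strand): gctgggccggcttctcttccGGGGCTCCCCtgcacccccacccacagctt
4930555K05Rik (chr13:73220264-73220313, - strand): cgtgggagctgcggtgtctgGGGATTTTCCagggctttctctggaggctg
Zfpm1 (chr8:122285141-122285190, + strand): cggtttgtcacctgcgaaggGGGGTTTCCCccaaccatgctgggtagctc
Of these, the site named B230209E15Rik was intergenic and the others were intronic. The summit was 0 to 88 bp from the match over all 12. At 4 cytokine or receptor genes the sequence was as follows. The Il23a site held the consensus, Crlf2 and Il17re held only a GGG and a CC separated by 5 bases (in capitals), and at Il9 neither form was found within 100 bp of the summit, so the 41 bases around the summit are shown in lower case.
Il23a (chr10:128298160-128298209, + strand): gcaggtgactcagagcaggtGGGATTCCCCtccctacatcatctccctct
Crlf2 (chr5:109557821-109557870, + strand): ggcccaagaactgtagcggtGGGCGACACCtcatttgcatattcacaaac
Il17re (chr6:113451540-113451589, - strand): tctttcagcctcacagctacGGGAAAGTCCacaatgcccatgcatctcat
Il9 (chr13:56477087-56477127, + strand): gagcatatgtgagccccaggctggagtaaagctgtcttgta

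The 279 sites were among the weaker peaks of the aged/IgG control list. The median fold enrichment over the local background was 3.09 (95% interval of the median 3.06 to 3.14), against 3.91 (3.85 to 3.98) for the 3890 aged/IgG control peaks that overlapped an adult peak. It was 3.06 (2.97 to 3.13) in the IgG-control-only sites and 3.18 (3.09 to 3.34) in the sites of both aged lists. The median member stood at percentile 21.2 of its own list by fold enrichment. In the weakest decile of the list, 16.1% of peaks were members, in the second 15.8%, in the fifth 6.47% and in the seventh 1.92%. The strongest 3 deciles together held 1 member, the site on chromosome 7 named B230209E15Rik. No IgG-control-only site lay above the sixth decile. Members were also narrower, with a median width of 341 bp (332 to 346) against 440 bp (435 to 443), the smallest width called in any list being 300 bp. The difference was smaller against the peaks overlapping adult with a fold enrichment in the same range (2.44 to 3.91), whose median width was 376 bp (371 to 381).

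**Figure D1:**
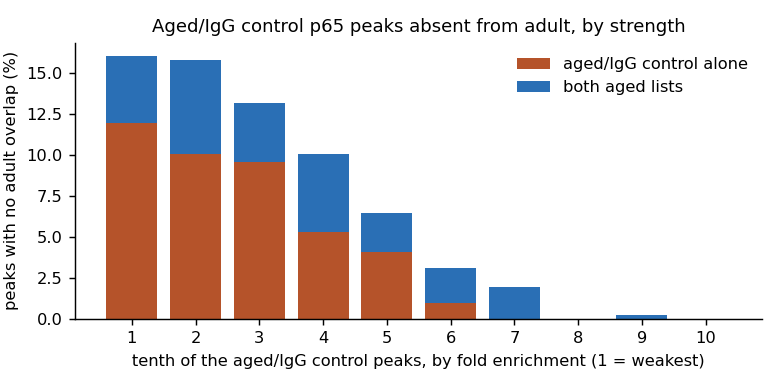
Percentage of aged/IgG control p65 peaks with no adult overlap (y axis) in each decile of fold enrichment (x axis, 1 is the weakest), with IgG-control-only sites in orange and sites of both aged lists in blue. The share falls from 16.1% in the weakest decile to 0.24% in the ninth and 0% in the tenth.

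The strength in reads could be recovered from the lists. For all 4169 aged/IgG control peaks, the fold enrichment and the −log10 p together gave a whole number of overlapping reads at the summit (the pileup) and a local background. The IgG-control-only sites had pileups of 35 to 64 reads with a median of 44 (43 to 45), and the sites of both aged lists 36 to 87 reads with a median of 48 (47 to 50). Peaks that overlapped adult had a median of 63 reads (62 to 64), and those of them in the same range of fold enrichment 52 reads (52 to 52). Local backgrounds of the members were low, with a median of 13.6 reads against 14.8 in the peaks overlapping adult and 15.5 in those of the same range. The lowest value in the list was 13.1. To place these values beside the adult list, the background of each site was scaled by the ratio of the lowest backgrounds, 13.4 reads in adult and 13.1 in aged/IgG control. The fewest reads with which a summit would then reach the smallest −log10 p of the adult list, 4.92, were counted. This limit was 31 to 46 reads over the members. The IgG-control-only sites exceeded it by a median of 11 reads and the sites of both aged lists by 15, whereas peaks overlapping adult exceeded it by 27. The lower bound of the exact Poisson interval of the pileup was above the limit at 81 of 175 IgG-control-only sites (46.3%, 39.1 to 53.7%), at 69 of 104 sites of both aged lists (66.3%, 56.8 to 74.7%) and at 76.0% (74.0 to 77.8%) of the peaks that overlapped adult and had a fold enrichment in the same range (2.44 to 3.91, n = 1881). At the other 129 members the counting interval of the pileup reached down to the lowest adult limit. A peak must pass the limit over 300 bp and not at its summit alone, so the limit is a lower bound, and the lists give no adult value where adult has no peak.

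**Figure D2:**
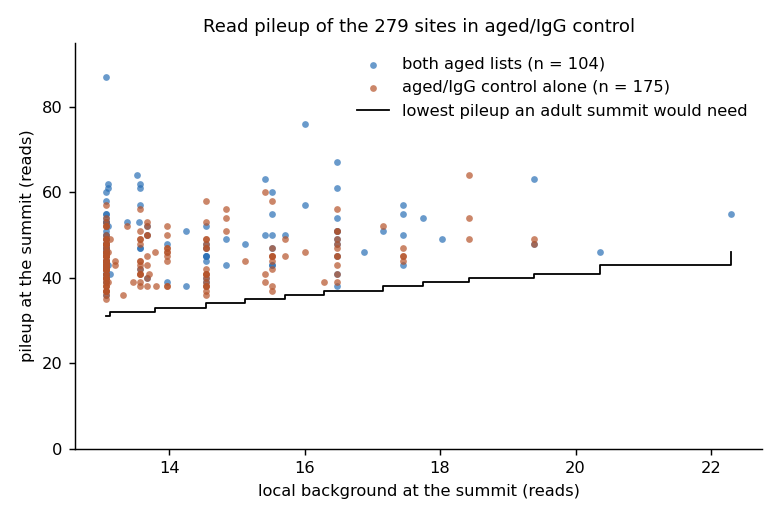
Read pileup at the summit (y axis, reads) against the local background (x axis, reads) for the 175 IgG-control-only sites (orange) and the 104 sites of both aged lists (blue). The black line is the lowest pileup an adult summit would need, 31 to 46 reads, and the points stand from 1 to 56 reads above it.

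How many sites count as absent from adult rested on the length of the adult list. When each list was reduced to its 4169 strongest peaks, 1003 aged/IgG control peaks had no adult overlap, 674 of them in neither other list and 329 in the shortened aged/anti-IL-17A/F list. When each peak had to be covered by the other over at least 50% of its length, 521 were absent. Counting any peak within 500 bp as present left 263.

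The NF-κB consensus was less common at the IgG-control-only sites than at the sites of both aged lists. It was found within 100 bp of the summit at 23 of 175 IgG-control-only sites (13.1%, 8.92 to 18.9%) and at 34 of 104 sites of both aged lists (32.7%, 24.4 to 42.2%), and these intervals did not overlap. With the adult list and that of aged/anti-IL-17A/F exchanged, the shares were 13.1% and 18.8% (15.2 to 23.1%), with overlapping intervals. Among aged/IgG control peaks overlapping adult it was found at 39.0% (37.5 to 40.5%), and at 28.3% (26.3 to 30.4%) of those in the same range of fold enrichment. Windows of the same length 2000 bp to either side held it at 2% (0.972 to 4.07%) of the flanks of IgG-control-only sites and at 0.481% (0.0849 to 2.67%) of those of sites of both aged lists. The consensus was therefore more common at both classes than beside them. Over all 4169 aged/IgG control peaks the share was 37.8%. Peaks called in adult alone held it at 15.1% (13.8 to 16.4%, n = 3002) and peaks called in aged/anti-IL-17A/F alone at 23.9% (21 to 27%, n = 762). The interval of the IgG-control-only sites overlapped that of the former and not that of the latter.

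Strength was not the same in the 2 classes, so the motif was also counted within ranges of fold enrichment, split at 2.91 and 3.27. In the strongest range the consensus was at 6 of 43 IgG-control-only sites (14%, 6.56 to 27.3%) and at 21 of 48 sites of both aged lists (43.8%, 30.7 to 57.7%). In the middle range the shares were 14.8% (7.96 to 25.7%) and 30% (16.7 to 47.9%), and in the weakest 11.3% (5.82 to 20.7%) and 15.4% (6.15 to 33.5%). The intervals were apart in the strongest range and overlapped in the others. That range was not matched in strength, since it ended at 4.12 in the IgG-control-only sites and at 6.25 in the sites of both aged lists. With all sets ended at 4.12, a limit chosen after seeing the data, the share in the sites of both aged lists was 16 of 39 (41%, 27.1 to 56.6%), and its interval overlapped that of the IgG-control-only sites. Peaks overlapping adult had 19.3% and 26.1% in the weakest and middle ranges, 34.8% (32.1 to 37.6%, n = 1130) above 3.27 and up to 4.12, and 40.9% up to 6.25. The looser form, a GGG and a CC 5 bases apart, which includes every match to the consensus, was found at 53.1% (45.8 to 60.4%) of IgG-control-only sites, 67.3% (57.8 to 75.6%) of sites of both aged lists and 73.9% (72.5 to 75.2%) of peaks overlapping adult. In windows 2000 bp to either side it was at 19.7% (15.9 to 24.2%), 17.8% (13.2 to 23.6%) and 22% (21 to 22.9%). Without the consensus, the looser form was at 40% (33 to 47.4%), 34.6% (26.2 to 44.2%) and 34.9% (33.4 to 36.4%), with overlapping intervals. Where the consensus was present, its middle was a median of 31.5 bp from the summit in the IgG-control-only sites, 23.5 bp in the sites of both aged lists and 24.5 bp in the peaks overlapping adult.

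**Figure D3:**
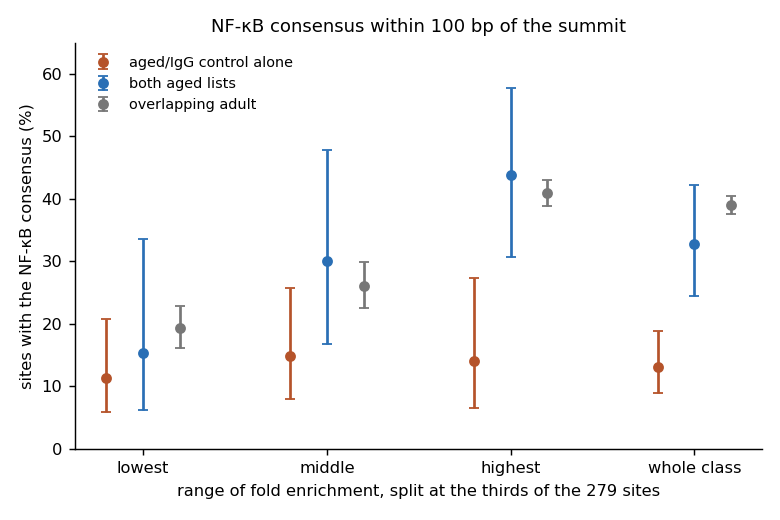
Percentage of sites with the NF-κB consensus within 100 bp of the summit (y axis) in 3 ranges of fold enrichment and in the whole class (x axis), for IgG-control-only sites (orange), sites of both aged lists (blue) and aged/IgG control peaks overlapping adult (gray). Points are shares and bars 95% Wilson intervals. The orange points stay between 11.3% and 14.8%, whereas the others are higher in the stronger ranges.

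The consensus was also counted by distance to a start site. Within 1 kb of a start site it was found at 3 of 59 IgG-control-only sites (5.08%, 1.74 to 13.9%) and 5 of 33 sites of both aged lists (15.2%, 6.65 to 30.9%). Beyond 1 kb it was at 20 of 116 (17.2%, 11.4 to 25.1%) and 29 of 71 (40.8%, 30.2 to 52.5%), and in each class the interval overlapped that of the sites within 1 kb. Over all members the shares were 8 of 92 (8.70%, 4.47 to 16.2%) within 1 kb and 49 of 187 (26.2%, 20.4 to 32.9%) beyond, with intervals apart. Peaks overlapping adult in the same range of fold enrichment had it at 22.1% (19.1 to 25.3%) within 1 kb and 32.0% (29.4 to 34.7%) beyond.

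Motifs of other factor families were counted in the same windows. The AP-1 motif TGANTCA was within 100 bp of the summit at 13.6% of members (10.1 to 18.1%) and 14.1% of peaks overlapping adult (13.1 to 15.2%). The TEAD motif GGAATG was at 13.6% and 14.8%, the C/EBP motif TTGCNNAA at 10.4% and 9.51%, the STAT motif TTCNNNGAA at 6.09% and 6.68%, and the AP-2 motif GCCNNNGGC at 11.8% and 13.4%. The ETS motif CGGAAG was at 8% (4.83 to 13%) of IgG-control-only sites and 15.4% (9.70 to 23.5%) of sites of both aged lists, and the GC-box GGGCGG of SP and KLF factors at 22.9% (17.3 to 29.6%) and 14.4% (8.94 to 22.4%). The E-box CACGTG (2.15% of members against 5.14%), the RUNX motif TGTGGTT (1.79% against 4.24%), the CRE motif TGACGTCA (0.717% against 1.18%), the CTCF core CAGGGGGC (1.43% against 1.29%) and a pair of CATG half-sites 6 bases apart, as p63 binds (0.717% against 0.566%), were rare in both. All were searched on both strands, and overlapping matches to different motifs were counted under each. For each of these motifs the interval over all members overlapped that over all peaks overlapping adult. Against the peaks overlapping adult in the same range of fold enrichment, the E-box intervals were apart (0.989 to 4.61% of members, 4.73 to 6.83%). By class, the RUNX motif was at 1 of 175 IgG-control-only sites (0.571%, 0.101 to 3.17%), apart from both sets of peaks overlapping adult (3.65 to 4.92% of all and 3.57 to 5.44% in the same range). In the sites of both aged lists the ETS interval was apart from that of all peaks overlapping adult (8.48%, 7.65 to 9.40%), and the GC-box interval from that of the same range (24.9%, 23.0 to 26.9%). The other intervals of these motifs overlapped in each of these comparisons.

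Members lay near start sites about as often as the rest of the list and between genes less often. A total of 92 (33.0%, 27.7 to 38.7%) had their middle within 1 kb of a start site, against 33.2% (31.7 to 34.7%) of peaks overlapping adult, and 50 lay beyond 50 kb. The middle was in an intron at 43.0% (37.3 to 48.9%), between genes at 38.0% (32.5 to 43.8%), in a 5′ UTR at 12.5% (9.16 to 16.9%) and in a coding exon at 4.66% (2.74 to 7.81%). For peaks overlapping adult in the same range of fold enrichment the shares were 37.7% (35.5 to 39.9%), 46.6% (44.4 to 48.9%), 9.99% (8.72 to 11.4%) and 3.56% (2.81 to 4.50%). The intergenic intervals were apart and the others overlapped. Against all peaks overlapping adult, the intergenic intervals (49.1%, 47.5 to 50.6%) and those of the 5′ UTR (8.07%, 7.26 to 8.97%) were apart. By class, the intergenic share was 37.1% (30.3 to 44.5%) in IgG-control-only sites and 39.4% (30.6 to 49.0%) in sites of both aged lists. Both intervals overlapped that of the same range, and only the first was apart from that of all peaks overlapping adult. The 5′ UTR shares, 13.1% (8.92 to 18.9%) and 11.5% (6.72 to 19.1%), had intervals that overlapped both. GC content around the summit had a median of 53.2% in members and 54.2% in peaks overlapping adult, and the summit fell in repeat sequence at 3.58% (1.96 to 6.47%) and 5.68% (5 to 6.45%).

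Most members were far from any adult peak. The gap to the closest adult peak had a median of 25461 bp, with quartiles of 7130 and 66998 bp, and was similar in both classes (medians of 25461 and 23500 bp). A total of 16 sites (5.73%) were within 500 bp of an adult peak and 86 (30.8%) within 10 kb. Just inside the rule were a site at Slc41a1 that abutted an adult peak with a gap of 0 bp, one at Mplkip with a gap of 27 bp, one nearest to 1700061I17Rik with 54 bp, one at Gadd45b with 87 bp and one at Nfic with 103 bp. Just outside it, a peak at Litaf overlapped an adult peak by 9 bp, one at Fam189a2 by 20 bp, one at Eif5a by 57 bp, one at Ndrg1 by 62 bp and one nearest to Gm16364 by 77 bp. The farthest site lay in an intron of Drp2, 4722627 bp from an adult peak, followed by sites at Pnpla8 (3244571 bp) and Ccser2 (2465842 bp) and the pair named B230209E15Rik (2273744 and 2240025 bp).

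**Figure D4:**
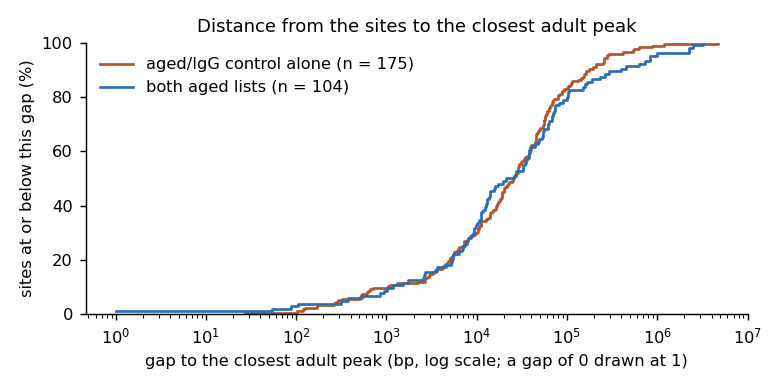
Cumulative percentage of sites (y axis) by the gap to the closest adult peak (x axis, bp, log scale) for the 175 IgG-control-only sites (orange) and the 104 sites of both aged lists (blue). The curves run close together, with 29.7% and 32.7% of sites within 10 kb of an adult peak.

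The strongest IgG-control-only site was on chromosome 10 from 94093415 to 94093762, in an intron, 54343 bp upstream of the start of Nr2c1, which encodes an orphan nuclear receptor. Its fold enrichment was 4.12, from a pileup of 57 reads (exact Poisson interval 43.2 to 73.9) over a background of 13.1. Among the next strongest were Prr16 (fold enrichment 3.91), Saxo1 (3.91), Zfand5 (3.84), Acsl5 (3.80), a long-chain acyl-CoA synthetase, 1600002D24Rik (3.77), 1700021L23Rik (3.77), Mtrf1l (3.72) and Ankrd55 (3.69). The named sites had pileups of 52 to 60 reads. Their intervals all overlapped, so the data give no order among them. Of the named sites, only Nr2c1, Prr16 and 1700021L23Rik held the consensus. The gap to the nearest adult peak ran from 2670 bp at 1600002D24Rik to 1182579 bp at Prr16.

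Among IgG-control-only sites at promoters of protein-coding genes, 55 in all, the strongest included those at Mtrf1l (fold enrichment 3.72), Rpa2 (3.57), Eif6 (3.54), Guca2a (3.48), Zfp143 (3.48), Eif4a2 (3.41), Bnc2 (3.34), Kpna6 (3.27) and Lins1 (3.27). Rpa2 encodes a subunit of the single-strand DNA-binding protein RPA, Eif6 and Eif4a2 translation initiation factors and Kpna6 an importin. None of those named held the NF-κB consensus within 100 bp of the summit. At Eif6 an adult peak assigned to the same gene lay 118 bp away and an aged/anti-IL-17A/F peak 152 bp away. The remaining sites with the consensus among the 10 strongest of that kind were nearest to Drp2 (3.48), Cdcp1 (3.48), 7530428D23Rik (3.34), BC051537 (3.27), Msh5 (3.18), Fbxl22 (3.17) and Rps23 (3.14), the last of these at a promoter. A site with the consensus nearest to Afap1 tied with Rps23 in fold enrichment.

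The site of both aged lists with the highest fold enrichment lay on chromosome 7 from 61481063 to 61481492, between genes, 134050 bp from the start of the noncoding RNA gene B230209E15Rik, and held the consensus 26 bp from its summit. Its fold enrichment was 6.25 (87 reads, 69.7 to 107) with control IgG and 7.56 (109 reads) with the blocking antibodies, and the closest adult peak was 2273744 bp away. A weaker member was nearest to the same gene, at 61514796 to 61515211 of the same chromosome. It was enriched 3.41-fold and also held the consensus. The second highest fold enrichment was at Fam53b (4.53), where the pileup of 76 reads had an interval of 59.9 to 95.1 that overlapped that of the strongest site. Then followed Mir6926 (4.48), Evc2 (4.47), Apip (4.40), Ccdc114 (4.34), Acap3 (4.32), Cpd (4.25), Rasl11b (4.19), 4930555K05Rik (3.98) and Zfpm1 (3.98), the last of which encodes the GATA cofactor FOG1. Of these, Evc2, Ccdc114, Acap3, Cpd, 4930555K05Rik and Zfpm1 held the consensus. Further sites with it among the 10 strongest of that kind were nearest to Cyb561 (3.89), 1700025G04Rik (3.84) and Fam133b (3.84).

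At promoters of protein-coding genes, 33 sites were found in both aged lists. The strongest were at Rab10 (fold enrichment 3.90), a small GTPase of membrane traffic, Pim1 (3.84), a serine/threonine kinase induced by cytokines, Slc35c1 (3.62), Zfand5 (3.61), Ccser2 (3.55), Il23a (3.48), Cbr2 (3.48), Zbtb17 (3.48), Taf5 (3.41) and Aldoa (3.34). Slc35c1, Il23a and Zbtb17 held the consensus. At Zfand5 an adult peak assigned to the same gene lay 105 bp away. At Pim1 the pileup was 53 reads over a background of 13.1 with control IgG and 58 over 18.1 with the blocking antibodies. The fold enrichment was thus lower with the blocking antibodies (3.09) than with control IgG (3.84). An adult peak lay 1513 bp away.

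The 104 sites of both aged lists overlapped 103 separate aged/anti-IL-17A/F peaks, since the pair at Gadd45b fell in a single wide one. The aged/anti-IL-17A/F pileup had a median of 54 reads against 48 in aged/IgG control and was the higher one at 75 sites, the lower one at 26 and equal at 3. At 0 of the 104 sites were the exact Poisson intervals of the 2 pileups apart, which does not show that the signals were equal. The median ratio of aged/IgG control to aged/anti-IL-17A/F pileup was 0.912, and 0.823 over the 3508 aged/IgG control peaks found in all 3 lists. A higher pileup in aged/anti-IL-17A/F was thus general to shared peaks. The pileup does not take the local background into account. Median fold enrichment at the 104 sites was 3.14 with the blocking antibodies and 3.18 with control IgG, so by this measure it was not higher with the blocking antibodies. Summits were within 50 bp of each other at 62 of the 104 sites.

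**Figure D5:**
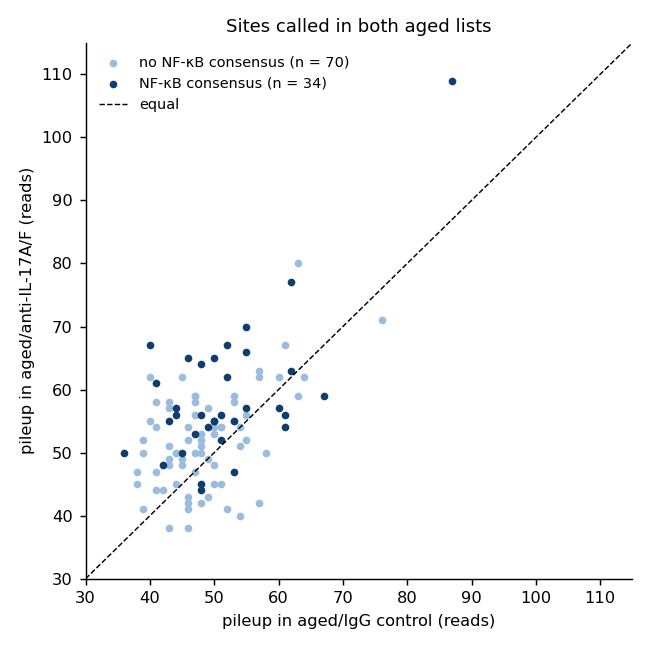
Read pileup in aged/anti-IL-17A/F (y axis, reads) against that in aged/IgG control (x axis, reads) for the 104 sites called in both aged lists, with the 34 that hold the NF-κB consensus in dark blue and a dashed line where both are equal. A total of 75 sites lie above the line, and the site at 87 and 109 reads is the one named B230209E15Rik.

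Of the 2706 protein-coding genes with an aged/IgG control peak, 229 (8.46%) had a member peak, and the counts for the gene lists below are given beside the number of list genes with an aged/IgG control peak. No list was tested against that share, so these small counts are description and do not tell whether a list differs from the other bound genes. In the list for the type 2 and TSLP axis, 5 of 20 genes had an aged/IgG control peak, and for 2 of them, Il9 and Crlf2, it was a member, IgG-control-only in both cases. Il9 encodes a cytokine of T cells and innate lymphoid cells, and Crlf2 the TSLP receptor chain. The Il9 site, on chromosome 13 from 56476847 to 56477188, lay 5240 bp downstream of the start site, between genes, with 42 reads over a background of 13.1 (fold enrichment 3.06). The Crlf2 site, on chromosome 5 from 109557669 to 109557968, lay 1175 bp downstream of the start, in an intron, with 38 reads over 13.7 (fold enrichment 2.66). Neither gene had any other p65 peak in any of the 3 lists. By fold enrichment the Il9 site stood at percentile 19.9 of the aged/IgG control list and the Crlf2 site at percentile 6.88. Their pileups had exact Poisson intervals of 30.3 to 56.8 and 26.9 to 52.2 reads, which reached the lowest pileup an adult summit would need there, 31 and 32 reads. The closest adult peaks were 38144 and 549565 bp away, and neither site held the consensus.

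Of the 20 genes of the IL-12 and IL-23 axis, 9 had an aged/IgG control peak and 2 of these, Il23a and Il12rb2, a member. Il23a, the p19 subunit of IL-23, which maintains IL-17-producing lymphocytes, had a site 95 bp upstream of its start in both aged lists, with 48 reads over a background of 13.1 with control IgG and 64 reads over 18.1 with the blocking antibodies (fold enrichments 3.48 and 3.40). The adult list had no peak assigned to Il23a, the closest adult peak being 4536 bp away. At Il12rb2, a chain of the IL-12 receptor, aged/IgG control had a site 8958 bp upstream of the start (47 reads, fold enrichment 3.09), adult had a different peak 65 bp downstream of it (52 reads, fold enrichment 3.27) and aged/anti-IL-17A/F had none. Of the 19 IL-17 cytokines, receptors and adaptors, 5 had an aged/IgG control peak and 1, Il17re, the receptor chain for IL-17C, had a member: an IgG-control-only site 7202 bp upstream with 53 reads and a fold enrichment of 3.68, the gene's only peak in the 3 lists.

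In the IL-1 list, 1 of 4 genes with an aged/IgG control peak had a member. This was Il1r1, the signaling receptor of IL-1, with an IgG-control-only site 54 bp downstream of its start (41 reads over 16.5, fold enrichment 2.40), whereas its adult peak was 6010 bp downstream (59 reads, fold enrichment 4). In the interferon and antigen presentation list it was 1 of 16: Ifnar2, a chain of the type I interferon receptor, had a site of both aged lists 280 bp downstream of the start, with 45 reads with control IgG and 62 with the blocking antibodies, and no adult peak. No member was assigned to the 18 NF-κB subunits and inhibitors with an aged/IgG control peak, nor to the 18 such AP-1 and stress factors, 7 chemokines and receptors, 6 genes of the TNF superfamily and 5 IL-17 response genes of keratinocytes.

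Among the keratinocyte differentiation and adhesion genes, 32 of 75 had an aged/IgG control peak and 1 of these a member. This was Krt10, the type I keratin of suprabasal cells, with an IgG-control-only site 2832 bp upstream (36 reads, fold enrichment 2.58) and an adult peak 1801 bp upstream (50 reads, fold enrichment 3.33). Of 23 hair follicle and sebaceous genes, 6 had an aged/IgG control peak and 2, Lrig1 and Scd1, had members. Lrig1, a regulator of EGF receptor signaling that marks stem cells of the upper follicle, had an IgG-control-only site 24936 bp downstream of its start (38 reads, fold enrichment 2.77). A strong peak 79863 bp upstream of the start was present in all 3 lists, enriched 9.98-fold in adult, 8.30-fold with control IgG and 8.09-fold with the blocking antibodies. A weaker peak 18607 bp upstream was in the adult and aged/IgG control lists alone. Scd1, the stearoyl-CoA desaturase of sebocytes, had 2 sites of both aged lists, 22945 bp downstream (55 reads) and 2867 bp upstream (48 reads). Adult peaks assigned to Scd1 lay 934 and 843 bp from them. A strong peak of this gene was in all 3 lists, enriched 7.70-fold in adult, 7.89-fold with control IgG and 8.04-fold with the blocking antibodies.

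Besides Scd1, 5 protein-coding genes had 2 member peaks. At Gadd45b, a stress-induced gene and known NF-κB target, both were of the class found in both aged lists, 1243 bp upstream and 152 bp downstream of the start, with fold enrichments of 3.04 and 2.97, and both held the consensus. Adult also had p65 binding assigned to Gadd45b, 372 bp from the first site and 87 bp from the second. At Pde4b, a cAMP phosphodiesterase, both were also of that class (3.29 and 2.91). Golph3 (2.84 and 2.99), Hsf2bp (2.75 and 3.14) and Zfand5 (3.84 and 3.61) each had 1 site of either class, given here with the IgG-control-only value first. Among noncoding RNA genes, Chaserr (3.06 and 3.20) and 2310015A10Rik (2.88 and 2.99) each had 2 IgG-control-only sites, and B230209E15Rik had 2 of both aged lists.

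By nearest start site, 235 members were assigned to 229 protein-coding genes, 36 to long noncoding RNA genes and 8 to microRNA genes. Of the 2706 protein-coding genes with an aged/IgG control peak, 149 (5.51%) had only member peaks, whereas 80 had a member beside another aged/IgG control peak. Of those 149 genes, 41 had an adult peak at another position, as Il12rb2, Il1r1 and Krt10 did, and 108 had none. Of these 108, 39 had an aged/anti-IL-17A/F peak and 69 had none in either other list. Genes whose only p65 peak was an IgG-control-only site included Il9, Crlf2, Il17re and Itgax.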

How the data were processed

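p65 ChIP–seq was done on epidermal cells of 4 mice in each of 3 conditions, with 1 pooled peak list per condition, and the 3 inputs were not used. The authors, by their methods, trimmed reads (Trimmomatic 0.36), mapped them to mm10 (Burrows–Wheeler aligner), merged, deduplicated and downsampled the 4 mice (SAMtools) and called peaks with MACS2 using fragments of 300 bp. Merging before the call removes the spread between mice, and downsampling does not even out the efficiency of the immunoprecipitation. Each deposited list gives a peak's position, a MACS2 score, a fold enrichment, which is a ratio over local background computed by the authors, and the −log10 p, −log10 q and summit. The adult list's peaks carry the name prefix of aged/anti-IL-17A/F, and groups followed the labels.

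An overlap of 1 bp or more made a peak present in another list. Pileup and background were solved from fold enrichment, taken as (pileup + 1)/(background + 1), and a Poisson tail for p. The pileup came out whole (within 0.05 of the step to the next whole number) for 100% of peaks in each list. Backgrounds above the lowest value fell on multiples of 0.969 or 0.291 reads in 96.0% of such aged/IgG control peaks (within 0.002), steps in the ratio that windows of 300 and 1000 bp would give, so a library counted in such windows entered the background. Which library that was is not given in the sources used here. Genes came from RefSeq curated transcripts of GRCm38, by the start site nearest to the middle of the peak, of any gene where a site is named. The range of fold enrichment used for comparison ran from the 5th to the 95th percentile of members. Motifs were sought on either strand up to 100 bp from the summit. Shares have 95% Wilson intervals, medians binomial order-statistic intervals and pileups exact Poisson intervals. With 1 pool per condition no test was made. Overlap, motif and pileup steps were tested on simulated data. Python 3.11.15, numpy 2.4.6, pandas 2.3.3, scipy 1.17.1, pysam 0.24.0 and matplotlib 3.10.9 were used.

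The members and gene lists were chosen with earlier results of these data known. Named genes were list genes with a member peak, the 10 strongest members of each class in all, at promoters and with the consensus, the 5 nearest to and farthest from an adult peak and those just outside the rule, and genes with at least 2 members. Some members named by this rule are not reported here. Sequences are shown for the 6 strongest members with the consensus in each class, leaving out exons and chromosome 18, and for 4 cytokine or receptor genes, of which Il23a and Il17re were added after their values were seen. Alternatives were other overlap rules, stricter q limits, equal numbers of peaks, other motif windows and annotation rules. The exchange of 2 lists and the motif shares by class under the alternatives were added after the data were seen.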

Additional observations from a re-analysis of the deposited data

How the results depend on the processing

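The 3 counts of sites absent from adult, absent from both other lists and present in aged/anti-IL-17A/F were 279, 175 and 104. They became 521, 298 and 223 with a required overlap of at least 50% of the length of both peaks, 159, 109 and 50 with a −log10 q of at least 10 in every list, and 1003, 674 and 329 with an equal number of peaks per list. With the adult list and that of aged/anti-IL-17A/F exchanged, the first and last were 557 and 382. Keeping only aged/IgG control peaks with a −log10 q of 5 or more moved the members' median fold enrichment to 3.15. The relaxed motif was at 58.4% of members, and 0.717% of members had at least 50% of the window in repeat sequence. Genes with only member peaks numbered 538 with an equal number of peaks and 298 with the lists exchanged. Of 52 alternative values, 36 stayed within 1.5 times the main count or within the main interval, and 16 did not.

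The consensus stayed less common at sites absent from both other lists than at sites of both aged lists under each of the 8 alternatives run by class, with 9.14 to 17.4% against 18.8 to 39.4% for the consensus itself, and the intervals overlapped for the relaxed motif and for the exchanged lists. No paired analysis was possible because each condition has a single pooled list. The lists hold no adult reads at sites without an adult peak, so a site below the adult limit and a site without p65 cannot be told apart.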

Other observations

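In the marker lists of other cell types that an epidermal suspension could hold, 1 gene had a member peak: Itgax, an integrin of dendritic cells. It was IgG-control-only, 31852 bp upstream of the start with 44 reads and a fold enrichment of 3.20, and Itgax had no peak in the other lists. The site was assigned to Itgax by nearest start site but lay in an intron of Itgam. The closest adult peak, 7971 bp away, was assigned to Itgam. The dendritic and Langerhans cell list had 12 genes, of which 4 were bound in adult and 2 in aged/IgG control. None of the 24 T cell genes, 21 of which were in the annotation, was bound in aged/IgG control, and 1 of 13 macrophage and monocyte genes, 0 of 12 fibroblast genes, 4 of 8 endothelial genes, 0 of 8 adipocyte genes, 0 of 8 melanocyte genes and 0 of 10 muscle genes were, none of them at a member. Outside these lists, and chosen after its value was seen, Aif1, a macrophage marker, had a site of both aged lists in an intron, with 54 reads and a fold enrichment of 3.15 with control IgG. A peak is not expression, so these counts do not give the makeup of the suspension, and its part in the results was not tested.

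Members of the class found in both aged lists with the consensus, chosen after their values were seen, included sites nearest to Cdkn2a, which encodes the cell cycle inhibitors p16 and p19, and Mdm2, the ubiquitin ligase of p53. The Cdkn2a site lay 47319 bp from the start between genes, with 47 reads with control IgG and 53 with the blocking antibodies. The Mdm2 site lay 8889 bp upstream with 46 and 65 reads. The closest adult peaks were 70418 and 188378 bp away. IgG-control-only promoter sites, also chosen after their values were seen, included Cgas, the sensor of cytosolic DNA (40 reads, 67 bp upstream), Gpx4, the lipid peroxide reductase (40 reads, 523 bp downstream), and Tet2, a DNA demethylating enzyme (38 reads, 129 bp upstream), none with the consensus. In the same order, the closest adult peaks were 4420, 171 and 56221 bp away, that at Gpx4 being assigned to Gpx4 itself. The pileup intervals began at 28.6, 28.6 and 26.9 reads, below the adult limits of 31, 31 and 34 reads there. Members were found on every chromosome with an aged/IgG control peak, from 3.85% of the 26 peaks on chromosome X to 9.48% of the 211 on chromosome 10.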
